A study of Mus musculus with 18 samples.

Results

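Epididymal white adipose tissue and liver of mice on a normal diet were compared across all genes of the deposited expression table, as a description of how the transcriptomes of these tissues differ at baseline. The comparison used 6 of the 18 libraries of the study, 3 from adipose tissue and 3 from liver, numbered as in the labels. All came from male C57BL/6J mice of 17 weeks, which had eaten the normal diet (ND) for 12 weeks from week 5 of age, and the labels name no altered gene and no agent for them. The other 12 libraries came from mice on a high-fat diet (HFD) or on that diet with a green tea ethanol extract at 0.25% by weight (GT). They were used here only to see whether a tissue difference recurred. Values are FPKM, mapped fragments scaled by transcript length and by library size, so levels of different genes can be set side by side per length. A gene was kept when at least 2 of the 6 libraries reached 1 FPKM, which held for 14496 of 23474 genes. Of these, 10359 reached the minimum in libraries of both tissues, 3757 in adipose libraries alone and 380 in liver libraries alone, and 1611 of the 3757 were kept through adipose 1 and a single other adipose library. Just inside the filter, 150 genes had a second-highest value from 1 to 1.1 FPKM, and just outside it 196 genes had one from 0.9 to 1 FPKM. Whether each library stands for its own mouse is not in the labels. The p-values therefore rest on the spread between these libraries, which may be technical.

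White adipocytes store triglyceride in a single large droplet coated by perilipin, take up fatty acids that lipoprotein lipase frees from circulating lipoproteins, and release them again through hormone-regulated lipolysis. They also secrete hormones such as leptin and adiponectin. Hepatocytes make most plasma proteins and lipoproteins, turn ammonia into urea and cholesterol into bile acids, clear drugs, and release glucose and ketone bodies. Both tissues also hold endothelium, macrophages and matrix-forming cells. In bulk RNA a lower level may come from fewer cells of a type or from less RNA per cell, and these cannot be told apart here.

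The labelled tissues matched their defining markers. The summed FPKM of 8 adipocyte markers was 6958, 35380.0 and 23640.0 in adipose 1 to 3, against 41.7 to 74.2 in the liver libraries. For 8 hepatocyte markers it was 32630 to 37200 in liver and 3.79, 9.40 and 18.3 in adipose 1 to 3. Adipose 1 stands apart: 6 spermatid and sperm genes summed to 93560 FPKM there, against 135.0 in adipose 2, 2421 in adipose 3 and 0 in every liver library. Likewise 6 epididymal genes summed to 16850 FPKM in adipose 1 against 7.13 and 12.3 in adipose 2 and 3. A longer list of 24 epididymal genes summed to 29470, 15.35 and 136.8 FPKM in adipose 1 to 3. Of its members, Lcn2 was at 2.08 and 76.2 FPKM in adipose 2 and 3, and Cst8 at 2.12 and 34.3 FPKM. Adipocyte markers were lower in adipose 1 than in the other adipose libraries. Counts and most differences are therefore given for all 6 libraries and again for adipose 2 and 3 against the 3 liver libraries. For some genes only levels are given. The fit without adipose 1 has 5 libraries. Adipose 3 also differed from the others. There 41 genes were at 5 FPKM or more and at 5 or more times the value in each of the other 8 adipose libraries. Such genes numbered 1699 in adipose 1, 1 in adipose 2 and 0 to 7 in each adipose library of the other diets. A gene that was also high in adipose 1 could not enter the count of adipose 3, so that count is a lower bound. Epcam, at 23.3, 0.129 and 16.5 FPKM in adipose 1 to 3, and Krt19, at 52.8, 2.32 and 13.6 FPKM, were left out in this way. For some genes high in adipose 3, a difference without adipose 1 and 3 is added. FPKM totals were 1002765, 608819 and 535653 in adipose 1 to 3 and 703182 to 791867 in liver. Read numbers were not analysed here, so the depth behind each value is unknown.

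With all 6 libraries, 3350 of 14496 genes (23.1%) differed between the tissues at an adjusted p under 0.05, of which 2391 were higher in adipose tissue (16.5% of the genes tested) and 959 higher in liver (6.62%). Without adipose 1, 9088 genes (62.7%) differed, 7497 higher in adipose tissue (51.7%) and 1591 higher in liver (11.0%). Without adipose 1 and 3, 9382 genes differed, 7666 and 1716 in those directions. Called in both of the former fits and in the same direction were 3342 genes, 2383 of them higher in adipose tissue. Differences are adipose minus liver on the log2(FPKM + 1) scale throughout, given ± the SE of the limma fit, with Benjamini-Hochberg adjusted p-values. Where a pair of differences is given, the former is from all 6 libraries and the latter from the fit without adipose 1. The added 1 understates differences of genes with low FPKM. The median difference over all genes was 0.87, or 1.83-fold toward adipose tissue, so most genes lay above liver on the deposited scale. That shift, and with it the split of the calls, depended on scaling. The median difference was 1.02 at equal FPKM totals, 0.40 with scaling by the median ratio across genes and 0.03 with quantile normalization. The share of calls higher in adipose tissue was 71.4% as deposited, 74.3%, 49.5% and 28.9% in the same order. In adipose 2 and 3 against liver those shares were 82.5%, 87.6%, 60.2% and 49.1%. Under all of these scalings without adipose 1, and in both fits as deposited, 2439 genes were called, 1486 higher in adipose tissue and 953 higher in liver. The calls of all 6 libraries also rested on the number of libraries: 806, 871 and 811 genes were called without liver 1, 2 or 3, 5505 without adipose 2 and 1530 without adipose 3. The plot of mean levels shows the asymmetry between a broad band of moderate differences above the diagonal and a smaller set of liver genes far below it.

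**Figure D1:**
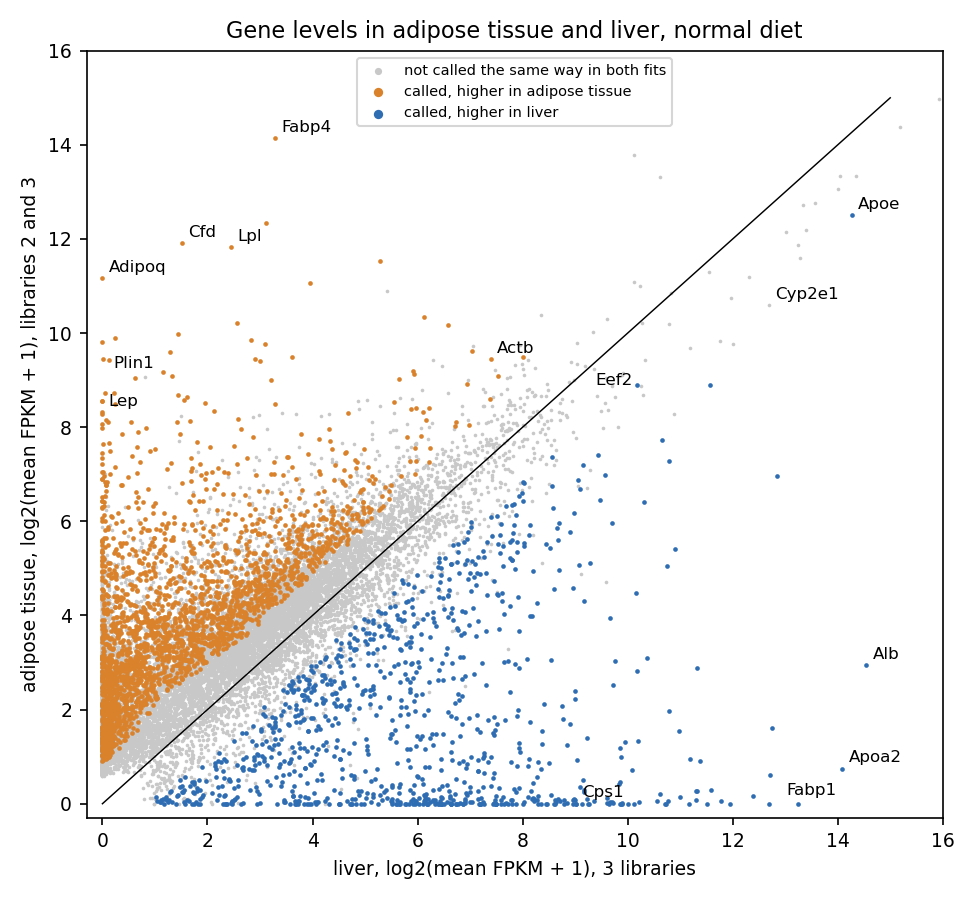
Mean level of each kept gene in liver (horizontal, 3 libraries) and in adipose tissue (vertical, libraries 2 and 3), both as log2(mean FPKM + 1), with the diagonal of like levels. Coloured points are the 3342 genes called the same way in both fits; liver genes such as Alb and Fabp1 lie near the horizontal axis and adipocyte genes such as Adipoq near the vertical axis.

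The liver transcriptome was held by fewer genes. The 10 highest genes took 30.2%, 35.4% and 31.4% of the FPKM total in liver 1 to 3 and 15.1%, 29.0% and 19.3% in adipose 1 to 3. The first 50% of the total was reached with 38, 27 and 37 genes in liver and with 227, 115 and 408 genes in adipose tissue. Genes at 1 FPKM or more numbered 10251 to 10476 in liver and 13865, 12137 and 14213 in adipose 1 to 3. The tissues did not overlap in these measures, with or without adipose 1, and the exact two-sided permutation p was 0.1 for each, which is the smallest that 3 libraries against 3, or 2 against 3, can give.

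**Figure D2:**
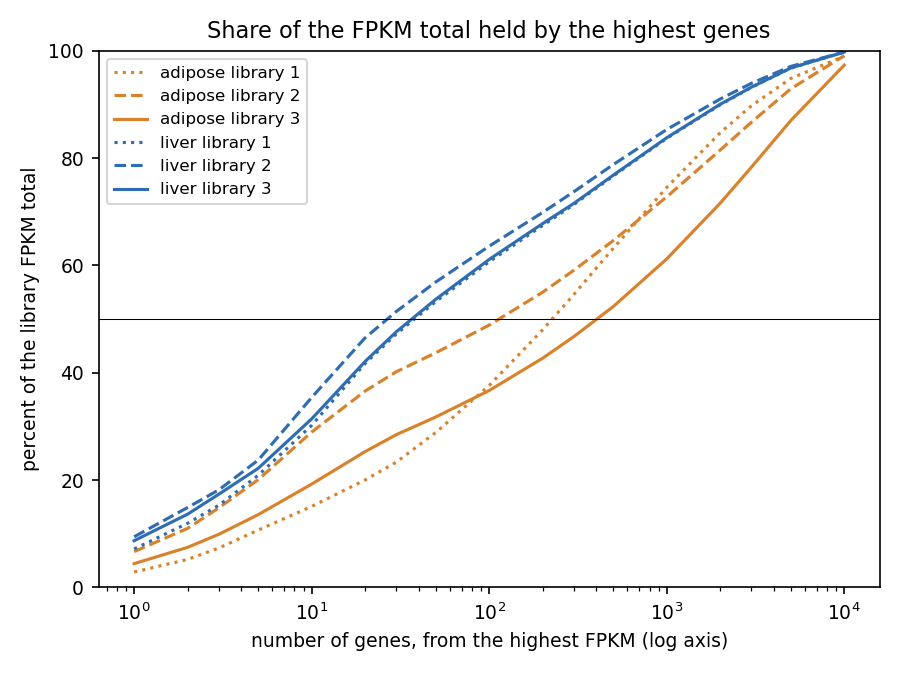
Cumulative percent of each library's FPKM total (vertical) against the number of genes counted from the highest (horizontal, log axis), a line per library. The 3 liver lines reach 50% at 27 to 38 genes and the adipose lines at 115 to 408 genes.

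Adipocyte hormones were among the largest differences in favour of adipose tissue. Adipoq, which encodes adiponectin, was at 202, 2781 and 1826 FPKM in adipose 1 to 3 and listed at 0 in the 3 liver libraries, a difference of 9.98 ± 0.99 (adjusted p = 0.0019) with all 6 libraries and 11.14 ± 0.20 (adjusted p = 3.5e-06) without adipose 1. Lep, the leptin gene, was at 7.97, 323 and 317 FPKM and also listed at 0 in liver (difference 6.60 ± 1.43 and 8.32 ± 0.12, adjusted p = 0.025 and 2.3e-06). Adipose 1 was the lowest library for both hormones. Retn, which encodes resistin, was at 350.0, 1128 and 679 FPKM in adipose tissue and 0 in liver (difference 9.34 ± 0.46 and 9.77 ± 0.24, adjusted p = 8.3e-05 and 7.4e-06). Cfd, which encodes the complement protease adipsin, was even across the adipose libraries at 3048, 4074 and 3626 FPKM, against 1.78, 3.11 and 0.720 FPKM in liver 1 to 3. Its difference was 10.37 ± 0.41 and 10.48 ± 0.37 (adjusted p = 2.8e-05 and 2.4e-05), and the tissues did not overlap. Retnla, a resistin-like gene that macrophages also make, was at 272, 1218 and 672 FPKM in adipose tissue and at most 0.345 FPKM in liver. Over all genes tested, 16.5% were higher in adipose tissue and 6.62% in liver with all 6 libraries, and 51.7% and 11.0% without adipose 1, which are the shares beside which each list count stands. A gene that passed the filter through libraries of 1 tissue alone could hardly be higher in the other. The number of such members is therefore given where there were any, and their counts are a description. Of 21 kept members of the list of adipokines and receptors, 11 were higher in adipose tissue and 2 in liver with all 6 libraries, 18 and 3 without adipose 1, and 11 of the 21 were kept through adipose libraries alone. Adipor2, an adiponectin receptor, was at 24.0, 366 and 332 FPKM in adipose 1 to 3 and 162, 139 and 157 FPKM in liver. Its difference was -0.08 ± 1.07 (adjusted p = 0.96) with all 6 libraries and 1.19 ± 0.14 (adjusted p = 0.0013) without adipose 1. Its sign changed between scalings with all 6 libraries.

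Genes of fat storage and release were higher in adipose tissue, with a liver counterpart for several. Fabp4, the adipocyte fatty acid binding protein, had the highest mean of any named gene in adipose 2 and 3, with 3089.9, 23308 and 13012 FPKM in adipose 1 to 3 and 9.73, 9.89 and 6.53 FPKM in liver. The difference was 9.996 ± 0.78 and 10.83 ± 0.31 (adjusted p = 6.8e-04 and 1.3e-05). Plin1, the coat protein of the adipocyte droplet, was at 59.1, 682 and 706 FPKM in adipose tissue and at most 0.0356 FPKM in liver (difference 8.25 ± 0.99 and 9.42 ± 0.12, adjusted p = 0.0042 and 2.3e-06). Lpl, lipoprotein lipase, was at 205, 4309 and 2990.0 FPKM against 3.69, 4.95 and 4.70 FPKM (difference 7.996 ± 1.17 and 9.37 ± 0.21, adjusted p = 0.0077 and 6.3e-06). In each of these 3 genes adipose 1 was the lowest adipose library and still lay far above liver. Of 18 lipolysis genes, 9 were higher in adipose tissue with all 6 libraries and 17 without adipose 1, and none was higher in liver in either fit, with 9 of the 18 kept through adipose libraries alone. Lipe, hormone-sensitive lipase, was at 278, 714 and 677 FPKM against 6.203, 6.96 and 6.26 FPKM (difference 6.10 ± 0.44 and 6.54 ± 0.12, adjusted p = 4.3e-04 and 3.3e-06). Pnpla2, adipose triglyceride lipase, had a smaller difference of 3.49 ± 0.66 and 4.22 ± 0.15 (adjusted p = 0.018 and 2.5e-05), with 284, 1416 and 1189 FPKM in adipose tissue and 72.0, 63.0 and 72.0 FPKM in liver. Abhd5, the activator of that lipase, was even within each tissue at 94.3, 84.0 and 95.1 FPKM and 12.1, 11.6 and 13.8 FPKM (difference 2.77 ± 0.25 and 2.75 ± 0.14, adjusted p = 0.0012 and 7.1e-05). Droplet coat genes were called in both directions: of 13, 5 were higher in adipose tissue and 4 in liver with all 6 libraries. Without adipose 1 they were 7 and 6, beside 51.7% and 11.0% of all genes, so the adipose count was near that share. Of the 13, 2 were kept through adipose and 1 through liver libraries alone. On the liver side were Hsd17b13, a hepatocyte droplet enzyme at 264, 248 and 268 FPKM in liver and at most 0.0617 FPKM in adipose tissue, and Plin2, which coats droplets in most cells. Plin2 was at 987, 535 and 705 FPKM in liver and 58.8, 233 and 275 FPKM in adipose tissue. Its difference was -2.20 ± 0.68 (adjusted p = 0.064) with all 6 libraries and -1.50 ± 0.29 (adjusted p = 0.0073) without adipose 1, where it passed the test. In the HFD and GT libraries Plin2 ran from 551 to 1336 FPKM in adipose tissue and from 195 to 620 FPKM in liver. The difference toward liver thus did not recur there.

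**Figure D3:**
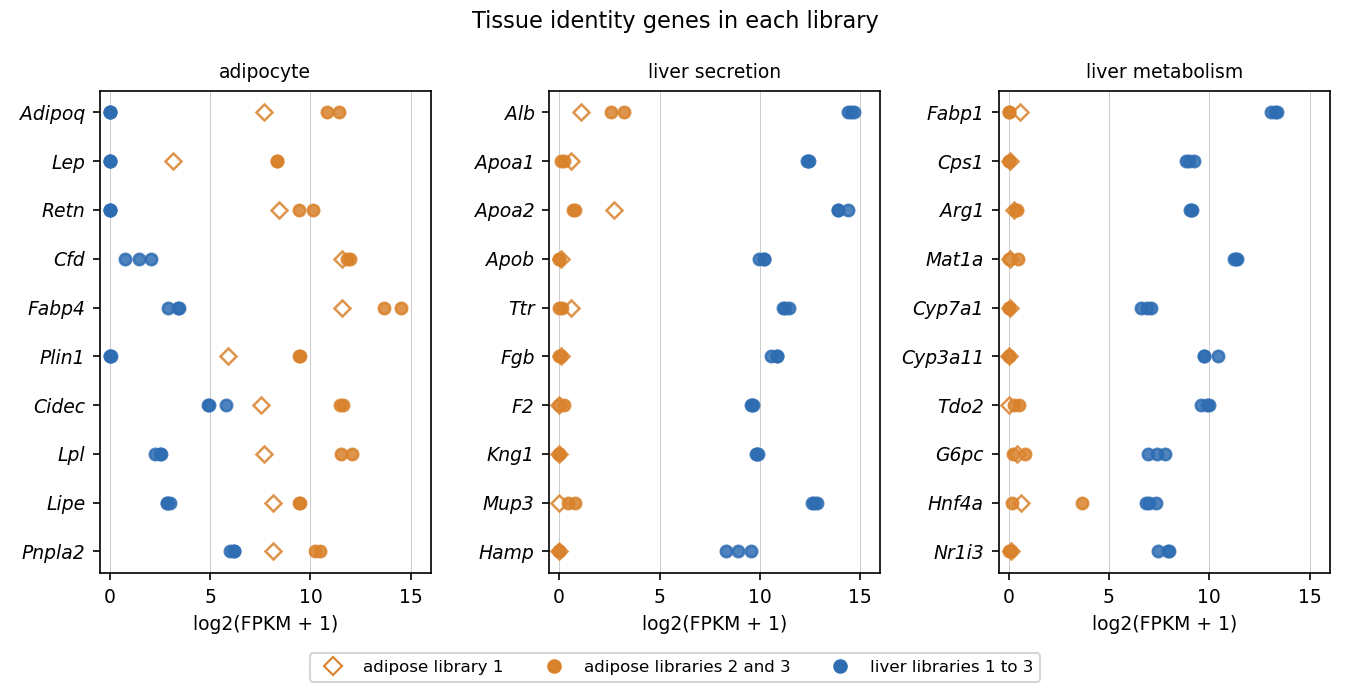
Level of 30 tissue identity genes in each library as log2(FPKM + 1), in panels for adipocyte, liver secretory and liver metabolic genes; open diamonds are adipose 1, filled orange circles adipose 2 and 3, and blue circles the liver libraries. The tissues do not overlap for any gene shown, and adipose 1 lies below the other adipose libraries for most adipocyte genes.

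The remaining largest adipose genes included Sncg, Gsn, Nnat, Adig, Apol6, Gpx3 and Tnp1. Gsn, which encodes the actin-severing protein gelsolin, was at 607, 5562 and 4733 FPKM in adipose tissue and 5.93, 9.69 and 7.27 FPKM in liver (difference 8.21 ± 0.90 and 9.24 ± 0.22, adjusted p = 0.0029 and 7.3e-06). Gpx3, the secreted glutathione peroxidase, was level across the adipose libraries at 451, 438 and 388 FPKM, against 1.74, 1.99 and 1.38 FPKM in liver (difference 7.31 ± 0.26 and 7.26 ± 0.15, adjusted p = 2.1e-05 and 5.2e-06). Adig, adipogenin, was highest in adipose 1, at 482, 214 and 132 FPKM, and listed at 0 in liver. Tnp1, a spermatid nuclear protein gene, was at 28802, 45.1 and 707 FPKM in adipose 1 to 3 and 0 in liver, and it moved with the testis genes of adipose 1. It was called in both fits, so also without adipose 1 (difference 9.94 ± 2.22 and 7.50 ± 1.12, adjusted p = 0.028 and 0.0030). Without adipose 1 and 3 the Tnp1 difference was 5.53. Of the 15 largest adipose genes, the other 14 kept their call in every alternative setting tried and Tnp1 did not, and all 15 of the largest liver genes kept theirs. Of 22 kept testis genes, 10 were higher in adipose tissue and 0 in liver with all 6 libraries, and 16 and 1 without adipose 1. Of the 22, 20 were kept through adipose libraries alone. The list summed to 115300, 228 and 3927 FPKM in adipose 1 to 3 and to 24.7 to 35.1 FPKM in liver. Of 8 kept epididymis genes, 0 were higher in adipose tissue with all 6 libraries and 4 without adipose 1. Of these 8, 7 were kept through adipose libraries alone. Among adipogenic regulators, Pparg, the nuclear receptor that drives adipocyte differentiation, was at 3.36, 92.5 and 71.5 FPKM in adipose tissue and 5.30, 6.96 and 5.79 FPKM in liver. Adipose 1 lay below liver for Pparg, so the difference was 2.15 ± 1.19 (adjusted p = 0.2) with all 6 libraries and 3.56 ± 0.18 (adjusted p = 7.5e-05) without adipose 1. Cebpa, its partner in both adipocytes and hepatocytes, was at 16.6, 128 and 129 FPKM and 85.9, 104 and 89.5 FPKM, with a difference of -0.49 ± 0.83 and 0.47 ± 0.14 (adjusted p = 0.66 and 0.032). The sign for Cebpa changed with scaling. Hoxc8, a homeobox gene of trunk position, was at 10.5, 56.6 and 38.6 FPKM in adipose tissue and listed at 0 in liver (difference 4.89 ± 0.64 and 5.58 ± 0.20, adjusted p = 0.0054 and 2.5e-05). Of 15 kept adipogenic regulators, 6 were higher in adipose tissue and 1 in liver with all 6 libraries, and 11 and 1 without adipose 1, with 7 kept through adipose libraries alone.

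On the liver side, the 15 largest differences were in genes of secreted proteins, of the liver fatty acid binding protein and of the enzymes Cyp4a14 and Mat1a. Alb, which encodes albumin, was at 23684, 21466 and 26495 FPKM in liver 1 to 3 and 1.13, 8.40 and 5.05 FPKM in adipose 1 to 3, a difference of -12.23 ± 0.60 (adjusted p = 8.0e-05) with all 6 libraries and -11.62 ± 0.24 (adjusted p = 4.9e-06) without adipose 1. Fabp1, the liver fatty acid binding protein, was at 8707, 10060.0 and 10482 FPKM in liver, 0.507 FPKM in adipose 1 and 0 in adipose 2 and 3 (difference -13.05 ± 0.32 and -13.25 ± 0.14, adjusted p = 1.3e-05 and 2.3e-06). Apoa2, a protein of high-density lipoprotein, was at 15267, 21599 and 15428 FPKM against 5.61, 0.598 and 0.756 FPKM (difference -12.67 ± 0.62 and -13.33 ± 0.21, adjusted p = 8.0e-05 and 2.5e-06). For these 3 genes the liver libraries varied far less among themselves than they differed from adipose tissue. Of 21 kept plasma transport proteins, 18 were higher in liver with all 6 libraries and 21 without adipose 1, and 0 higher in adipose tissue, but 11 of the 21 had been kept through liver libraries alone. Ttr, transthyretin, and Ahsg, fetuin-A, were at 2291, 2828 and 2453 FPKM and 3073, 3031 and 3184 FPKM in liver and below 1 FPKM in every adipose library. Of 29 coagulation genes, 20 were higher in liver and 2 in adipose tissue with all 6 libraries, and 21 and 5 without adipose 1. Of the 29, 16 were kept through liver and 2 through adipose libraries alone. F2, prothrombin, was at 758, 799 and 768 FPKM in liver and at most 0.163 FPKM in adipose tissue (difference -9.53 ± 0.25 and -9.49 ± 0.13, adjusted p = 1.3e-05 and 2.3e-06). Kng1, kininogen, was listed at 0 in all 3 adipose libraries and at 888, 927 and 956 FPKM in liver. Complement genes were called in both directions: 13 of 30 members were higher in liver and 6 in adipose tissue with all 6 libraries. Without adipose 1 they were 17 and 10, the latter below the 51.7% of all genes. Of the 30, 7 were kept through liver and 3 through adipose libraries alone. C3, the central component, was at 1792, 1357 and 1678 FPKM in liver and 22.9, 187 and 234 FPKM in adipose tissue (difference -3.97 ± 0.92 and -2.93 ± 0.20, adjusted p = 0.03 and 2.0e-04), while Cfd, which activates the alternative pathway, was on the adipose side. Mbl1 and Mbl2, mannose-binding lectins, were listed at 0 in adipose tissue and at 179.2 to 236.6 FPKM in liver. Of 19 kept major urinary protein genes, male-biased liver products, all 19 were higher in liver in both fits, and all 19 had been kept through liver libraries alone. Mup3 was at 6541, 7337 and 6141 FPKM in liver (difference -12.30 ± 0.33 and -12.10 ± 0.17, adjusted p = 1.3e-05 and 2.3e-06). Reads of these near-identical copies can be shared, so the split between members is uncertain.

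Apolipoprotein genes separated the lipoproteins that liver releases from the proteins that both tissues make. Apob, the structural protein of very low density lipoprotein, was at 1195, 987 and 1161 FPKM in liver and at most 0.0816 FPKM in adipose tissue (difference -10.08 ± 0.25 and -10.12 ± 0.14, adjusted p = 1.3e-05 and 2.3e-06). Apoe, which directs lipoprotein uptake, was at 20235, 22308 and 16645 FPKM in liver and 2303, 5592 and 6109.7 FPKM in adipose tissue, and, leaving out mitochondrial genes, was among the 10 highest genes of liver and of adipose 2 and 3. Its difference was -2.19 ± 0.59 and -1.74 ± 0.22 (adjusted p = 0.045 and 0.0016). Of 30 kept members of the list, 20 were higher in liver and 2 in adipose tissue with all 6 libraries, and 22 and 4 without adipose 1, with 7 kept through liver libraries alone.

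Hepatocyte transcription factors followed the same order. Hnf4a, a nuclear receptor that defines hepatocytes, was at 127, 114 and 159 FPKM in liver and 0.553, 0.124 and 11.4 FPKM in adipose 1 to 3, so adipose 3 lay far above the other adipose libraries. The difference was -5.58 ± 0.93 and -5.15 ± 0.99 (adjusted p = 0.012 and 0.0075), and -6.89 without adipose 1 and 3. Nr1i3, the drug-sensing receptor CAR, was at 173, 243 and 253 FPKM in liver and at most 0.0948 FPKM in adipose tissue (difference -7.69 ± 0.28 and -7.71 ± 0.20, adjusted p = 2.1e-05 and 9.5e-06). Of 19 kept factors, 14 were higher in liver with all 6 libraries and 15 without adipose 1, with 0 and 2 higher in adipose tissue; 9 of the 19 were kept through liver libraries alone.

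The promoters of liver genes were read from RefSeq for letters that HNF4, the product of Hnf4a, binds. The letters CAAAGTCCA were searched on both strands of the 250 bases before to 50 bases after each gene's start. They stood in 13 of the 370 windows found for 479 genes called higher in liver by at least 3 on the log2 scale in both fits. They stood in 1 of 346 windows found for 440 genes higher in adipose tissue by as much, and in 0.555% of all 27025 windows. Windows were found for 77.2% and 78.6% of the genes, under the 80% that a comparison of shares would need, so these are counts only. The 5 liver genes printed here were picked from these because they span the liver's roles: the drug-metabolizing cytochrome gene Cyp3a11, the bile acid enzyme genes Cyp8b1 and Cyp2c70, and the aminotransferase genes Agxt2 and Aadat. Each stretch is upstream of the start, 5′ to 3′ on the gene's strand, with the letters on either strand in capitals (GRCm38.p6).
Cyp3a11, chr5:145879939-145879979, minus strand: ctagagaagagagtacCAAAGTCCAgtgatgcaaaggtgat
Cyp8b1, chr9:121916348-121916388, minus strand: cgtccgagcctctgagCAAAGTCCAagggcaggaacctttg
Cyp2c70, chr19:40187326-40187366, minus strand: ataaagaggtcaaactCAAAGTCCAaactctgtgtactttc
Agxt2, chr15:10358496-10358536, plus strand: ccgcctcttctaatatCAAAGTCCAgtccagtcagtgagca
Aadat, chr8:60506036-60506076, plus strand: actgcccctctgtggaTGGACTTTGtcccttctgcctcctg

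In Aadat the letters read along the opposite strand and in the other 4 genes along the gene's strand. They begin 64 bases before the start of Cyp2c70 and 109 bases before that of Cyp3a11. The letters of the PPAR element, AGGTCANAG, where N is any base, stood in 14 windows of the liver genes, 11 of the adipose genes and 2.31% of all windows. Those of C/EBP, TTGCNNAA, stood in 81, 39 and 12.2%. A match is a run of letters and was not tested for binding.

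Genes of nitrogen, bile acid and drug metabolism were mostly higher in liver. Of 36 kept genes of the urea cycle and amino acid breakdown, 34 were higher in liver with all 6 libraries and 35 without adipose 1, and 0 were higher in adipose tissue, under each scaling without adipose 1 too, with 14 of the 36 kept through liver libraries alone. Cps1, which fixes ammonia for urea, was at 507, 453 and 598 FPKM in liver, 0.0641 FPKM in adipose 1 and 0 in adipose 2 and 3 (difference -8.98 ± 0.26 and -9.01 ± 0.16, adjusted p = 1.3e-05 and 3.1e-06). Arg1, which releases urea, was at 528, 566 and 551 FPKM against 0.194, 0.327 and 0.239 FPKM (difference -8.78 ± 0.25 and -8.74 ± 0.12, adjusted p = 1.3e-05 and 2.3e-06). Tdo2, which opens the tryptophan ring, was at 946, 758 and 1026 FPKM against 0, 0.219 and 0.455 FPKM. Of 19 kept bile acid genes, 17 were higher in liver with all 6 libraries and 18 without adipose 1, with 13 of the 19 kept through liver libraries alone. Cyp7a1, the rate-limiting enzyme of bile acid synthesis, was at 95.2, 135 and 117 FPKM in liver and at most 0.0439 FPKM in adipose tissue (difference -6.83 ± 0.27 and -6.85 ± 0.18, adjusted p = 2.7e-05 and 9.6e-06). Of 23 kept drug-metabolizing cytochromes, 16 were higher in liver and 1 in adipose tissue with all 6 libraries, and 19 and 3 without adipose 1, with 12 kept through liver and 2 through adipose libraries alone. Cyp3a11 was listed at 0 in the adipose libraries and at 853, 1388 and 849.9 FPKM in liver. Cyp2e1, which oxidizes ethanol and ketones, was at 6414, 7218 and 6231 FPKM in liver and 102, 1612 and 1492 FPKM in adipose 1 to 3. Its difference was -3.40 ± 1.13 (adjusted p = 0.077) with all 6 libraries and -2.09 ± 0.17 (adjusted p = 3.8e-04) without adipose 1, where liver had 4.27 times the adipose mean. Of 24 conjugating enzymes, 12 were higher in liver and 1 in adipose tissue with all 6 libraries, and 18 and 1 without adipose 1. Of the 24, 7 were kept through liver libraries alone. Sult2a8, a sulfotransferase, was listed at 0 in adipose tissue and at 632, 524 and 667 FPKM in liver. Slco1b2, an uptake transporter, was at 486, 451 and 562 FPKM in liver and at most 0.0451 FPKM in adipose tissue (difference -8.94 ± 0.25 and -8.96 ± 0.14, adjusted p = 1.3e-05 and 2.5e-06). Copies within the Cyp3a, Cyp2c and Ugt2b families are alike, so reads may be shared among them.

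Fatty acid oxidation genes lay toward liver. Of 28 fatty acid oxidation genes, 15 were higher in liver with all 6 libraries and 23 without adipose 1, and none was higher in adipose tissue in either fit. Of the 28, 2 were kept through liver libraries alone. Cyp4a14 and Cyp4a10, which oxidize the far end of fatty acids, were at 4395, 2425 and 3767 FPKM and 2034, 1904 and 2224 FPKM in liver and under 1 FPKM in adipose tissue. Acadm, which oxidizes medium chains, differed less, with 372, 305 and 385 FPKM in liver and 15.6, 259.7 and 163 FPKM in adipose tissue (difference -1.99 ± 1.05 and -0.78 ± 0.25, adjusted p = 0.18 and 0.04). Oxct1, which activates ketone bodies for use, lay on the adipose side, at 12.3, 172 and 134 FPKM in adipose tissue and 0.632, 0.686 and 0.599 FPKM in liver (difference 5.37 ± 0.99 and 6.55 ± 0.16, adjusted p = 0.016 and 7.4e-06).

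The main enzymes of fatty acid synthesis were higher in adipose tissue once adipose 1 was left out. Fasn, fatty acid synthase, was at 34.5, 333 and 287 FPKM in adipose 1 to 3 and 15.5, 21.2 and 20.3 FPKM in liver, 16.3 times as high in the mean of adipose 2 and 3. Its difference was 2.93 ± 0.90 (adjusted p = 0.064) with all 6 libraries and 3.97 ± 0.18 (adjusted p = 5.3e-05) without adipose 1. Acaca, which makes its substrate, was at 8.002, 74.2 and 85.8 FPKM and 6.11, 5.84 and 6.69 FPKM (difference 2.43 ± 0.90 and 3.49 ± 0.13, adjusted p = 0.094 and 3.1e-05). Scd1, the main desaturase, was at 306, 11074 and 9242 FPKM and 924, 2015 and 1745 FPKM (difference 1.09 ± 1.46 and 2.77 ± 0.38, adjusted p = 0.58 and 0.0022). For Scd1 adipose 1 lay below all liver libraries and adipose 2 and 3 above them. Of 20 lipogenic genes, 4 were higher in adipose tissue and 3 in liver with all 6 libraries, near the 16.5% of all genes. Without adipose 1 they were 14 and 4, beside 51.7% of all genes, and 11 and 6 with median ratio scaling. Of the 20, 2 were kept through adipose libraries alone. The liver side held Mlxipl, a glucose-sensing factor, at 169, 208 and 177 FPKM against 5.20, 14.5 and 26.8 FPKM (difference -3.74 ± 0.58 and -3.16 ± 0.28, adjusted p = 0.0093 and 4.8e-04), and the elongase Elovl5 at 522, 436 and 473 FPKM against 5.30, 46.5 and 61.0 FPKM (difference -4.17 ± 0.89 and -3.13 ± 0.18, adjusted p = 0.025 and 1.1e-04). Elovl3, an elongase of very long chains, was at 208, 179 and 137 FPKM in liver and at most 0.220 FPKM in adipose tissue (difference -7.32 ± 0.29 and -7.41 ± 0.20, adjusted p = 2.7e-05 and 1.1e-05). Of 22 cholesterol synthesis genes, 2 were higher in adipose tissue and 6 in liver with all 6 libraries, and 5 and 8 without adipose 1. The list's median without adipose 1 was 0.06 as deposited, 0.40 at equal totals, -0.63 with median ratio scaling and -0.76 with quantile normalization, so it changed sign. Hmgcs1, an early enzyme of that pathway, was at 15.9, 161 and 158 FPKM in adipose tissue and 42.6, 27.0 and 36.4 FPKM in liver, with a difference of 1.08 ± 0.93 and 2.17 ± 0.21 (adjusted p = 0.39 and 7.1e-04).

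Many enzymes and transporters exist as copies that a tissue uses in place of each other. Sorted into 32 groups with at least 2 kept members, 10 groups had members called on opposite sides with all 6 libraries and 18 without adipose 1. Without adipose 1 all kept members were higher in adipose tissue in 7 groups and in liver in 1, and the other 6 had neither pattern. The groups described were chosen for lying on opposite sides, except where stated. Among those on the adipose side without adipose 1 were the phosphofructokinases Pfkl, Pfkm and Pfkp, the carboxylases Acaca and Acacb, the desaturases Scd1 and Scd2, the aminotransferases Bcat1 and Bcat2 and the insulin receptor substrates Irs1 and Irs2. Slc2a2, the glucose carrier GLUT2, was at 70.0, 83.9 and 106 FPKM in liver and 0.137, 0.590 and 0.677 FPKM in adipose tissue (difference -5.90 ± 0.31 and -5.73 ± 0.20, adjusted p = 9.0e-05 and 2.4e-05). Slc2a4, the insulin-regulated carrier GLUT4, was at 2.54, 62.7 and 36.0 FPKM in adipose tissue and at most 0.0825 FPKM in liver (difference 4.27 ± 1.09 and 5.53 ± 0.26, adjusted p = 0.04 and 5.6e-05). Hk2, hexokinase 2, which phosphorylates glucose, was at 11.9, 14.5 and 23.1 FPKM in adipose tissue and 0.127, 0.333 and 0.173 FPKM in liver (difference 3.81 ± 0.37 and 4.001 ± 0.24, adjusted p = 0.0015 and 1.3e-04). G6pc, whose enzyme frees glucose from its phosphate, was at 169, 124 and 224 FPKM in liver and 0.338, 0.161 and 0.780 FPKM in adipose tissue (difference -6.91 ± 0.34 and -6.87 ± 0.31, adjusted p = 7.0e-05 and 5.4e-05). Pkm, the common pyruvate kinase, was at 220.1, 136 and 161 FPKM in adipose tissue and 3.98, 5.86 and 4.82 FPKM in liver (difference 4.86 ± 0.31 and 4.67 ± 0.18, adjusted p = 2.2e-04 and 3.4e-05). Its liver counterpart Pklr was at 31.5, 34.5 and 42.2 FPKM in liver and 1.15, 0.0440 and 13.4 FPKM in adipose 1 to 3, with adipose 3 again high (difference -3.53 ± 0.96 and -3.25 ± 1.08, adjusted p = 0.047 and 0.046, and -5.14 without adipose 1 and 3). Aldoa, a glycolytic aldolase, was at 393, 613 and 499 FPKM in adipose tissue and 56.7, 66.7 and 56.0 FPKM in liver (difference 3.03 ± 0.32 and 3.19 ± 0.16, adjusted p = 0.0023 and 7.6e-05). The glycogen synthases also lay on opposite sides, with Gys2 at 106, 94.1 and 140.0 FPKM in liver and 0.0752, 6.198 and 1.51 FPKM in adipose tissue, and Gys1 at 6.13, 34.8 and 34.8 FPKM in adipose tissue and 0.814, 1.57 and 1.15 FPKM in liver. For Gys2 the difference was -5.39 ± 0.71 and -4.73 ± 0.47 (adjusted p = 0.0055 and 7.4e-04), and for Gys1 it was 3.28 ± 0.69 and 4.05 ± 0.19 (adjusted p = 0.024 and 5.7e-05). The glycogen phosphorylases did not mirror this: Pygb was at 10.1, 94.7 and 69.8 FPKM in adipose tissue and 1.12, 0.980 and 0.918 FPKM in liver (difference 4.40 ± 0.83 and 5.36 ± 0.18, adjusted p = 0.017 and 1.9e-05), while Pygl, the liver form, was at 10.8, 98.4 and 62.0 FPKM and 86.3, 71.7 and 88.7 FPKM. For Pygl the 95% interval of the difference without adipose 1 ran from -0.66 to 0.53, and its sign changed with scaling.

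Lipid pairs separated as widely. Lipc, hepatic lipase, was at 99.9, 96.0 and 98.4 FPKM in liver, 0.791 FPKM in adipose 1 and 0 in adipose 2 and 3 (difference -6.35 ± 0.33 and -6.63 ± 0.12, adjusted p = 8.4e-05 and 3.1e-06), opposite to Lpl. Slc27a1, a fatty acid transporter, was at 70.6, 233 and 261 FPKM in adipose tissue and 17.2, 23.4 and 16.3 FPKM in liver (difference 3.05 ± 0.56 and 3.65 ± 0.19, adjusted p = 0.016 and 8.4e-05). Slc27a5, which activates bile acids, was at 387, 439 and 390.3 FPKM in liver and 0.634, 0 and 0.153 FPKM in adipose tissue (difference -8.36 ± 0.30 and -8.56 ± 0.13, adjusted p = 2.1e-05 and 2.5e-06). Aqp7 and Aqp9 are the glycerol channels of adipocytes and hepatocytes. Aqp7 was at 60.4, 126 and 99.9 FPKM in adipose tissue and at most 0.164 FPKM in liver (difference 6.44 ± 0.35 and 6.73 ± 0.17, adjusted p = 1.0e-04 and 8.6e-06). Aqp9 was at 264, 267 and 276 FPKM in liver and 19.98, 2.08 and 12.7 FPKM in adipose tissue (difference -4.81 ± 0.73 and -5.38 ± 0.62, adjusted p = 0.0087 and 0.0012). Cidec, which fuses adipocyte droplets, was at 182, 2802 and 3144 FPKM in adipose tissue and 55.0, 28.8 and 30.2 FPKM in liver (difference 4.97 ± 1.16 and 6.31 ± 0.31, adjusted p = 0.031 and 7.0e-05). Its relative Cideb, which loads lipoproteins, was at 204, 216 and 227 FPKM in liver and 3.34, 0.271 and 8.08 FPKM in adipose tissue (difference -5.87 ± 0.72 and -5.99 ± 0.81, adjusted p = 0.0044 and 0.0021, and -7.41 without adipose 1 and 3). Mat1a, which makes S-adenosylmethionine in liver, was at 2650.0, 2590.1 and 2369 FPKM in liver and at most 0.396 FPKM in adipose tissue (difference -11.11 ± 0.28 and -11.05 ± 0.18, adjusted p = 1.3e-05 and 2.5e-06). Mat2a, the form of other tissues, was at 30.7, 98.7 and 112 FPKM in adipose tissue and 53.5, 53.3 and 63.9 FPKM in liver (difference 0.30 ± 0.54 and 0.88 ± 0.15, adjusted p = 0.69 and 0.0045), with a sign that changed between scalings. Gls2, a liver glutaminase, was at 146, 149 and 127 FPKM in liver and 1.19, 0.759 and 0.468 FPKM in adipose tissue (difference -6.31 ± 0.28 and -6.46 ± 0.15, adjusted p = 4.5e-05 and 6.6e-06). Ppara, the nuclear receptor of fat oxidation, was at 66.7, 41.0 and 73.9 FPKM in liver and 0.389, 1.93 and 3.94 FPKM in adipose tissue (difference -4.46 ± 0.54 and -3.97 ± 0.35, adjusted p = 0.0042 and 4.7e-04), the reverse of Pparg in adipose 2 and 3. Lactate dehydrogenase subunits lay on opposite sides: Ldhb was at 163, 43.8 and 52.5 FPKM in adipose tissue and 1.27, 1.49 and 1.09 FPKM in liver (difference 5.01 ± 0.54 and 4.43 ± 0.16, adjusted p = 0.0027 and 2.5e-05), and Ldha at 297, 502 and 456 FPKM and 1216, 1102 and 1146 FPKM (difference -1.50 ± 0.38 and -1.27 ± 0.15, adjusted p = 0.038 and 0.0012). Of 79 kept genes in the pairs, 24 were higher in adipose tissue and 23 in liver with all 6 libraries, beside 16.5% and 6.62% of all genes. Without adipose 1 they were 41 and 28, beside 51.7% and 11.0%, so the adipose count was near the share of all genes. Of the 79, 10 were kept through adipose and 7 through liver libraries alone.

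**Figure D4:**
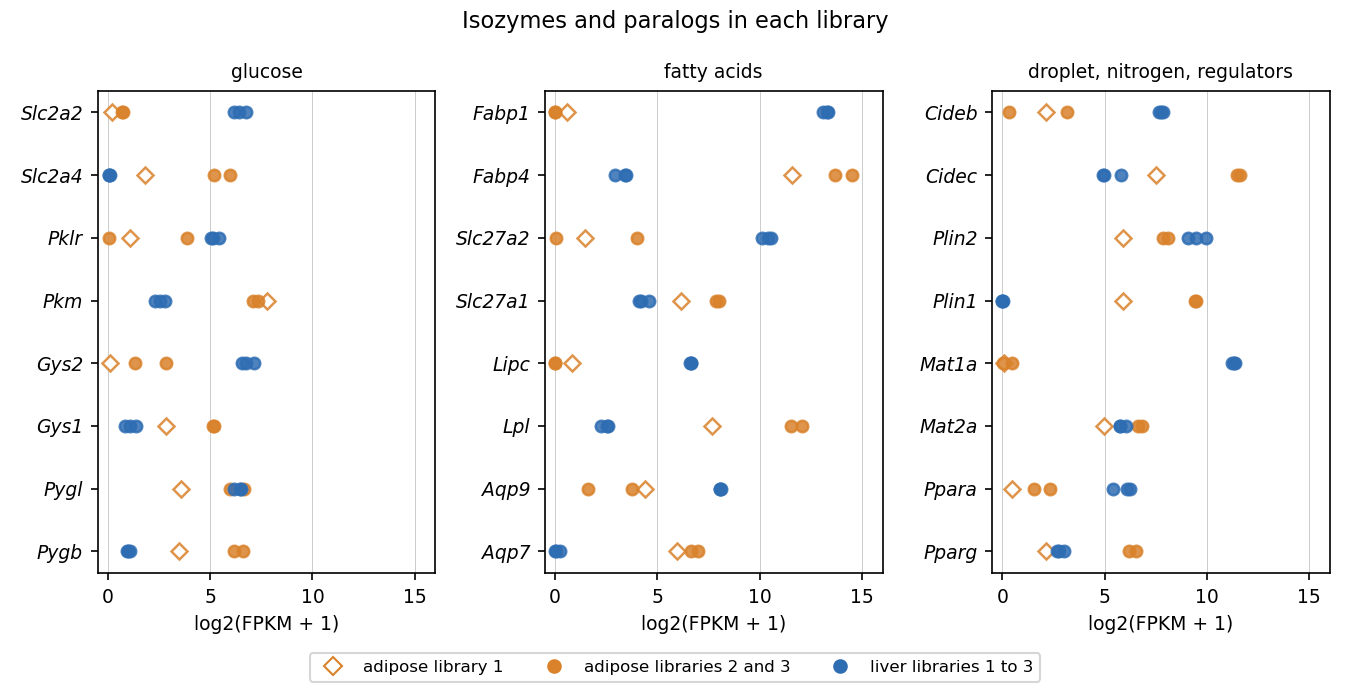
Level of 24 genes from isozyme and paralog groups in each library as log2(FPKM + 1), in panels for glucose, for fatty acids, and for droplet, nitrogen and regulatory genes; symbols as in the plot of identity genes. The pairs were chosen with their values known. For most the blue and orange circles change places from a gene to its partner; Pygl and Mat2a are among those where they lie close.

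Genes of matrix and other cell types were compared next. Of 33 collagen and matrix genes, 15 were higher in adipose tissue and 1 in liver with all 6 libraries, and 30 and 3 without adipose 1, with 7 kept through adipose libraries alone. Col1a1, a chain of fibrillar collagen, was at 8.30, 34.8 and 57.3 FPKM in adipose tissue and 0.797, 1.18 and 0.778 FPKM in liver (difference 3.82 ± 0.70 and 4.58 ± 0.25, adjusted p = 0.016 and 9.9e-05). Called on the liver side were Vtn in both fits and Col18a1 and Fn1 without adipose 1. Vtn, the plasma adhesion protein vitronectin, was at 855, 913 and 830.5 FPKM in liver and 2.89, 7.78 and 6.62 FPKM in adipose tissue (difference -7.08 ± 0.39 and -6.73 ± 0.13, adjusted p = 1.1e-04 and 4.5e-06). Of 24 endothelial genes, 4 were higher in adipose tissue and 3 in liver with all 6 libraries, near the 16.5% of all genes on the adipose side. Without adipose 1 they were 17 and 4, and 14 and 7 with median ratio scaling or quantile normalization. Of the 24, 1 was kept through adipose and 2 through liver libraries alone. Pecam1, a pan-endothelial gene, was at 5.44, 68.0 and 72.1 FPKM and 3.46, 3.56 and 3.50 FPKM (difference 2.82 ± 0.98 and 3.98 ± 0.12, adjusted p = 0.082 and 1.3e-05). Car4, a carbonic anhydrase of capillaries, was at 36.0, 43.9 and 38.4 FPKM in adipose tissue and listed at 0 in liver (difference 5.33 ± 0.27 and 5.39 ± 0.14, adjusted p = 7.8e-05 and 9.3e-06). Stab2, a scavenger receptor of liver sinusoids, was at 4.83, 4.70 and 6.77 FPKM in liver and 0.370, 0.297 and 1.12 FPKM in adipose tissue (difference -2.03 ± 0.37 and -1.94 ± 0.28, adjusted p = 0.015 and 0.0027). Of 10 kept mesothelial genes, 5 were higher in adipose tissue and 0 in liver with all 6 libraries, and 8 and 1 without adipose 1. Of the 10, 8 were kept through adipose libraries alone. Upk3b, a mesothelial surface protein, was at 3.74, 11.6 and 10.99 FPKM and 0.567, 0.486 and 0.351 FPKM (difference 2.61 ± 0.48 and 3.07 ± 0.16, adjusted p = 0.016 and 7.3e-05).

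General macrophage genes lay toward adipose tissue and several Kupffer cell genes toward liver. Of 28 general macrophage genes, 12 were higher in adipose tissue with all 6 libraries and 26 without adipose 1, and none in liver, with 7 kept through adipose libraries alone. C1qa, a complement chain made by macrophages, was at 52.5, 67.7 and 53.9 FPKM in adipose tissue and 12.7, 15.98 and 15.8 FPKM in liver (difference 1.89 ± 0.27 and 1.96 ± 0.17, adjusted p = 0.0071 and 4.8e-04). Adgre1, the surface protein F4/80, was at 0.651, 16.02 and 14.3 FPKM and 2.06, 1.66 and 2.997 FPKM (difference 1.24 ± 0.95 and 2.34 ± 0.21, adjusted p = 0.33 and 5.5e-04), with adipose 1 below liver. Of 13 kept genes of Kupffer cells, the liver macrophages, 4 were higher in liver with all 6 libraries and 6 without adipose 1. In the same order, 0 and 3 were higher in adipose tissue. The 13 genes of these cells included 4 kept through liver and 1 through adipose libraries alone. Clec4f, their lectin, was at 26.4, 32.7 and 32.6 FPKM in liver and listed at 0 in adipose tissue (difference -4.97 ± 0.29 and -4.97 ± 0.16, adjusted p = 1.3e-04 and 1.6e-05). Cd5l was at 22.4, 33.6 and 36.4 FPKM in liver and 2.402, 0.553 and 0.684 FPKM in adipose tissue (difference -3.91 ± 0.42 and -4.27 ± 0.24, adjusted p = 0.0025 and 1.1e-04). MHC class II genes, which present antigen, were higher in adipose tissue for 6 of 9 members with all 6 libraries and 8 without adipose 1. Kept through adipose libraries alone were 2 of these 9 MHC class II genes. Cd74, their invariant chain, was at 149, 565 and 472 FPKM and 30.6, 61.6 and 54.6 FPKM (difference 2.84 ± 0.61 and 3.43 ± 0.33, adjusted p = 0.025 and 6.3e-04). Ighm, the IgM heavy chain, was at 25.2, 170.2 and 92.7 FPKM and 3.61, 4.56 and 3.74 FPKM (difference 3.92 ± 0.70 and 4.68 ± 0.28, adjusted p = 0.015 and 1.4e-04). Of 10 kept lymphocyte genes 3 were higher in adipose tissue with all 6 libraries and 4 without adipose 1, the latter below the 51.7% of all genes. Of these 10, 4 were kept through adipose libraries alone. Globin transcripts, a measure of blood in the tissue, were also higher in adipose tissue: Hbb-bs was at 439.8, 483 and 257 FPKM and 41.5, 48.2 and 48.5 FPKM (difference 3.02 ± 0.36 and 2.91 ± 0.29, adjusted p = 0.0037 and 7.3e-04). Of 5 kept red cell genes, 4 were higher in adipose tissue in both fits, and the list summed to 1479, 982 and 571 FPKM in adipose 1 to 3 and 125 to 156 FPKM in liver. The other, Alas2, lay toward liver (difference -1.51 ± 0.49 and -2.03 ± 0.13, adjusted p = 0.072 and 1.7e-04). The part of blood in the immune results was not tested. Of 6 kept muscle genes, 1 was higher in adipose tissue with all 6 libraries and 2 without adipose 1, and 3 were kept through adipose libraries alone.

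**Figure D5:**
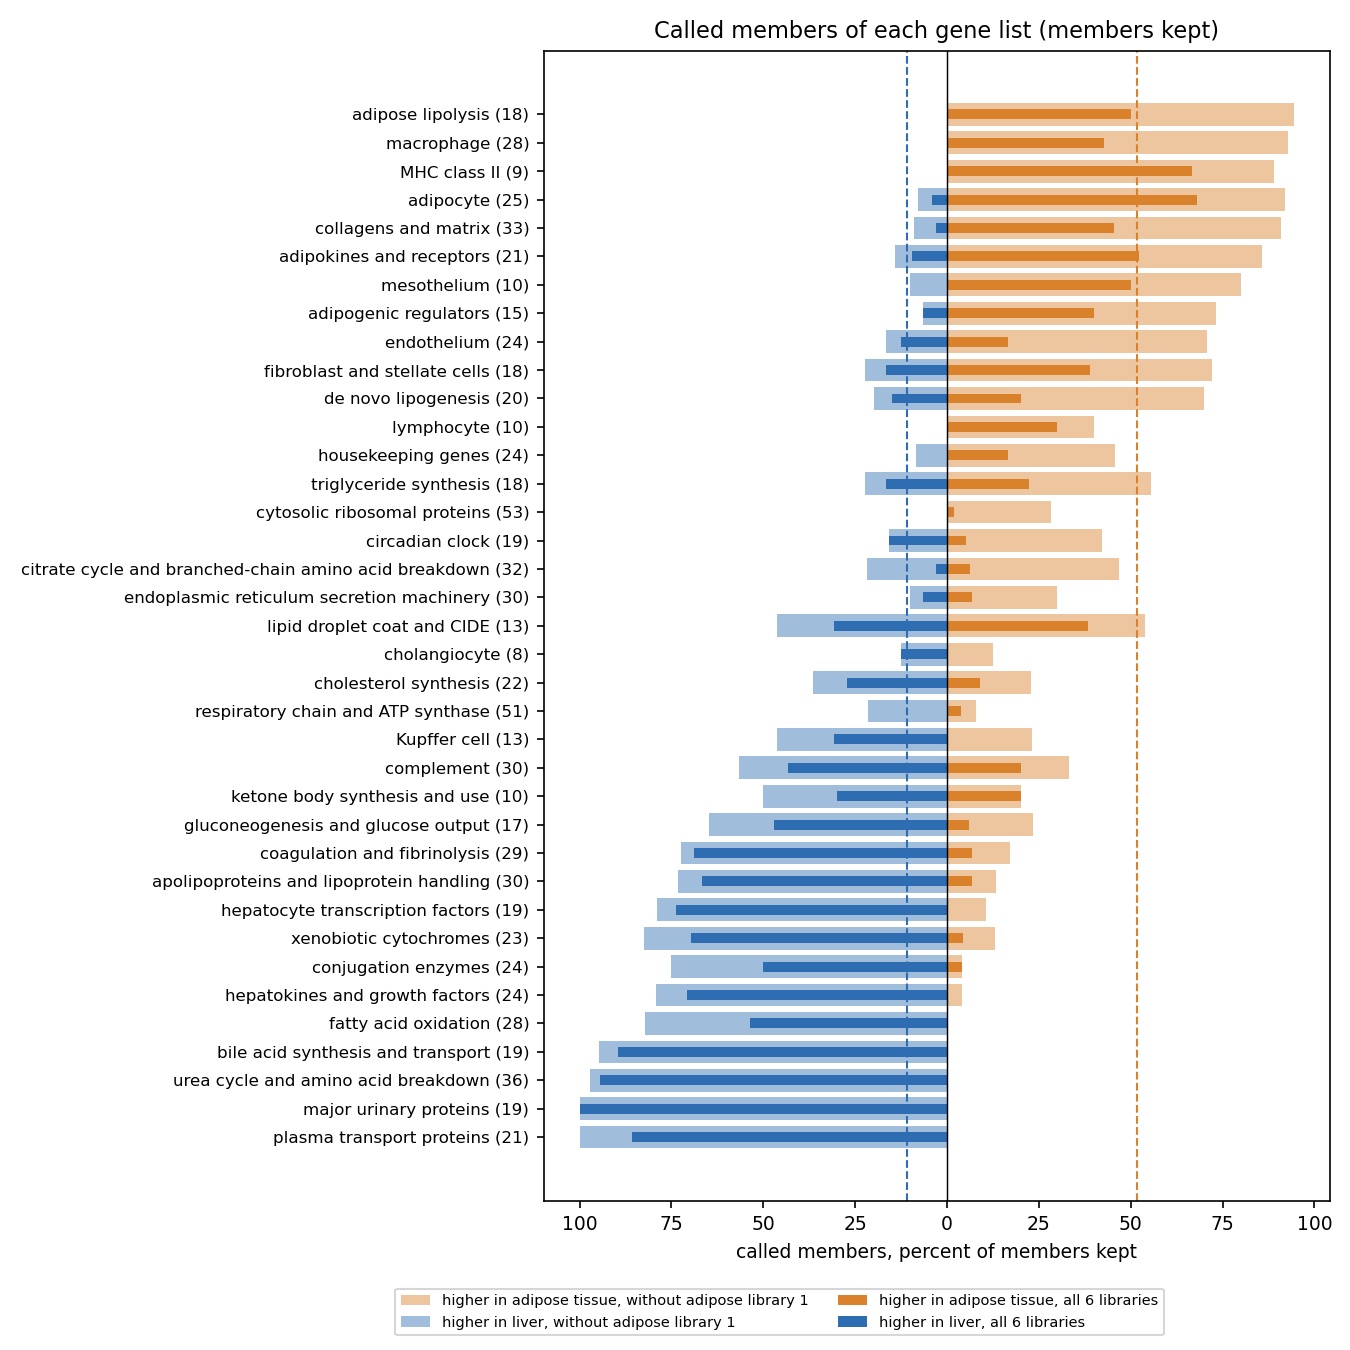
Percent of the kept members of each gene list (number kept in brackets) that were called higher in adipose tissue (orange, to the right) or in liver (blue, to the left); wide pale bars are the fit without adipose 1 and narrow dark bars all 6 libraries. Dashed lines mark the percent of all genes called in each direction without adipose 1, 51.7% and 11.0%.

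Genes of basic cell functions gave smaller differences, and for several of their lists the direction turned with the scaling. By the 95% interval of the difference, 529 genes lay within 1 log2 unit of no difference with all 6 libraries and 2773 without adipose 1, 517 of them in both. Eef2, an elongation factor, was at 535, 541 and 715 FPKM in adipose tissue and 573, 590.2 and 574 FPKM in liver, with an interval from -0.80 to 0.86 with all 6 libraries. Mdh2, mitochondrial malate dehydrogenase, was at 149, 168 and 136 FPKM and 131, 151 and 122 FPKM, with an interval from -0.55 to 0.87. Park7, a redox chaperone, was at 153, 153 and 109.7 FPKM and 134, 159.9 and 126 FPKM, with an interval from -0.79 to 0.74. Actb, the cytoplasmic actin often used as a reference gene, was not level between tissues, at 1075, 723 and 672 FPKM in adipose tissue and 161, 188 and 151 FPKM in liver (difference 2.27 ± 0.36 and 2.06 ± 0.15, adjusted p = 0.0093 and 2.7e-04). Gapdh, another reference gene, was at 50.2, 231 and 128 FPKM and 138, 119.9 and 146 FPKM (difference -0.23 ± 0.59 and 0.36 ± 0.28, adjusted p = 0.77 and 0.29), with a sign that changed between scalings. Of 53 cytosolic ribosomal protein genes, 1 was higher in adipose tissue with all 6 libraries and 15 without adipose 1, and 0 in liver. Without adipose 1 this became 46 higher in adipose tissue at equal totals, 33 with quantile normalization, and 0 with 6 higher in liver with median ratio scaling. Of 51 respiratory chain genes, 1 of them kept through adipose libraries alone, 2 were higher in adipose tissue and 0 in liver with all 6 libraries. The counts were 4 and 11 without adipose 1. Without adipose 1 these became 12 and 6 at equal totals, 2 and 33 with median ratio scaling and 4 and 8 with quantile normalization, so the direction turned. Cox8b, a subunit form of muscle and brown fat, was at 40.1, 22.4 and 17.2 FPKM in adipose tissue and listed at 0 in liver (difference 4.70 ± 0.40 and 4.37 ± 0.18, adjusted p = 8.5e-04 and 3.6e-05), and Atp5b, a subunit of ATP synthase, was at 1029, 929 and 1608 FPKM and 890.0, 715 and 732 FPKM (difference 0.57 ± 0.40 and 0.66 ± 0.28, adjusted p = 0.29 and 0.089), with a sign that changed between scalings.

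Genes at 10 FPKM or more in every library of a tissue and under 1 FPKM in every library of the other numbered 103 for adipose tissue and 229 for liver. Without adipose 1 they numbered 327 and 277. In the 12 libraries of the other diets, which the fits did not use, 94.7% of the 3350 genes called with all 6 libraries had all adipose libraries on the same side of all liver libraries, and 85.6% of the 9088 called without adipose 1. Of all 14496 genes tested, 66.8% did not overlap in those libraries in either direction. That held for all 15 of the largest adipose genes and for 12 of the 15 largest liver genes. The other 3 were Alb, Mup7 and Mup10, each listed at an exact 0 in a liver library of another diet. Alb was at 0 in liver HFD 3 and at up to 28177 FPKM in the other libraries of those diets, so an exact 0 in this table can be a failed estimate. Libraries that do not overlap can still differ less than on the normal diet. For Cfd the other diets ran from 251 to 1668 FPKM in adipose tissue and from 54.7 to 202 FPKM in liver. On the normal diet liver Cfd was at 0.720 to 3.11 FPKM, so the tissues lay closer in the other diets.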

How the data were processed

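Polyadenylated RNA was sequenced from TruSeq libraries, per the labels' protocols. The authors deposited 1 table of FPKM values for 23474 gene entries in 18 libraries. The submitters' processing notes name CASAVA 1.8.2, STAR 2.4.0 and Cufflinks 2.1.1; the genome build and annotation are not given in the sources used here. Gene symbols came from GENCODE M21 for 22671 entries, and 803 had none.

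From the deposited FPKM, log2(FPKM + 1) was fitted with limma 3.58.1 in R 4.3.3, with a mean per tissue and a trended, robust variance prior. P-values were adjusted by Benjamini-Hochberg over all 14496 genes and called at 0.05. Counts and most differences are given for all 6 libraries and for the 5 without adipose 1, and some genes have levels only. Fold changes of genes at 0 depend on the added 1. Lists came from general knowledge; members and lists were chosen with earlier results of these data known, so list counts have no test. Named were the 15 largest differences each way called in both fits without overlap, the 10 highest genes of each tissue, the isozyme pairs, defining list genes and up to 4 further members with the smallest p, and the 10 highest genes of like level, leaving out mitochondrial genes, pseudogenes, small RNAs and entries without a proper gene name. Not all are described, and some named genes and 1 of the motifs are not reported here. Promoter windows came from RefSeq (GRCm38.p6).

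Both fits were first checked on simulated data holding known changes. Alternatives were another added constant, other filters, scalings and variance settings, a replicate block, all 18 libraries in a single fit and each library left out. Scalings without adipose 1, and the fit without adipose 1 and 3, were chosen after seeing the data. Figures and tables used Python 3.11.15, NumPy 2.4.6, pandas 2.3.3 and matplotlib 3.10.9.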

Additional observations from a re-analysis of the deposited data

How the results depend on the processing

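The number of genes called depended on the settings. From 3350 with all 6 libraries it became 5051 with an added 0.1 (4049 higher in adipose tissue), 2061 with quantile normalization (595 and 1466 higher in liver), 10206 with library weights (8767 and 1439) and 9592 in a fit of all 18 libraries (7913 and 1679), and with median ratio scaling 1370 were higher in adipose tissue. Leaving out each library in turn gave 806 to 9088 calls, 315 to 7497 higher in adipose tissue and 486 to 1591 higher in liver. Without adipose 1, equal totals gave 10137 calls (8881 higher in adipose tissue, 1256 in liver), median ratio scaling 7395 (4450 and 2945) and quantile normalization 6404 (3145 and 3259). Without adipose 1 and 3 there were 9382 calls (7666 and 1716). Genes of like level, 529 with all 6 libraries, numbered 275 with an added 0.1, 4613 with no filter, 91 at equal totals, 1197 with median ratio scaling, 1161 with quantile normalization, 1901 with library weights, 2162 with all 18 libraries, and 17 to 2773 with a library left out. Without adipose 1 they numbered 1434, 4201 and 4775 under equal totals, median ratio and quantile scaling, and 4122 without adipose 1 and 3. Restricted adipose genes, 103 with all 6 libraries, numbered 105 to 679 with a library left out. Without adipose 1 and 3, 350 adipose and 399 liver genes were restricted, and adipose minus liver was -3.38 percentage points for the 10 highest genes and -12.9 for the 100 highest, against -11.2 and -20.7 with all 6 libraries. The causes were not tested.

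With the replicate number as a block, 1091 genes were called, 517 higher in adipose tissue and 574 in liver, and 6 were of like level. The deviations of same-numbered libraries from their tissue means had correlations of -0.0057, -0.093 and 0.22. For libraries of unlike number these ran from -0.22 to 0.16. So few values cannot decide whether the numbers pair the samples, since adipose 1 also held testis and epididymis genes.

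Of 289 named genes, these changed sign and passed the test, or lost a call with a change of sign. With quantile normalization Cd2 came to -0.041. With library weights Adipor2 came to 1.00. Without adipose 1, as deposited, Cebpa came to 0.47, Gpam to 0.80 and Adipor2 to 1.19. Without adipose 1 at equal totals, Cebpa came to 0.83, Xbp1 to 0.72, Gapdh to 0.72, Gpam to 1.16, Adipor2 to 1.55 and Atp5c1 to 0.54. Without adipose 1 under median ratio scaling, Slc27a4 came to -0.54, Eef2 to -0.66 and Gstm1 to -0.72, and under quantile normalization Eef1a1 to 0.75, Cebpa to 0.62, Hk3 to -0.97, Aldoc to -1.60, Slc27a4 to -0.66 and Adipor2 to 1.55. Without adipose 1 and 3, Epcam came to -0.59, Gapdh to 0.78, Adipor2 to 1.26 and Atp5c1 to 0.54. With a library left out, Gpam ran from -1.09 to 0.80 and Adipor2 from -0.75 to 1.19. FPKM keeps no read number, so the precision of low values is unknown.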

Other observations

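Clock genes, which cycle over the day, were called in both directions. Dbp, an output factor of the clock, was at 11.3, 29.7 and 31.3 FPKM in liver and 4.34, 1.79 and 4.34 FPKM in adipose tissue (difference -2.42 ± 0.51, adjusted p = 0.023, and -2.58 ± 0.53, adjusted p = 0.0093, without adipose 1). Hlf and Nfil3, factors of the same DNA-binding group, were also higher in liver, with Hlf at 13.5, 12.4 and 23.0 FPKM against 0.798, 1.57 and 2.68 FPKM and Nfil3 at 8.69, 12.2 and 8.50 FPKM against 2.15, 3.02 and 2.79 FPKM. Per1, a repressor of the core loop, was higher in adipose tissue, at 24.7, 14.8 and 33.8 FPKM against 3.32, 8.04 and 6.61 FPKM (difference 1.86 ± 0.44, adjusted p = 0.033, and 1.81 ± 0.46, adjusted p = 0.020). Liver 1 was the lowest liver library for Dbp and Per1 and the highest for Arntl, the core activator, at 4.12, 2.02 and 1.51 FPKM in liver 1 to 3. The labels give no collection time. Of 19 clock genes, 1 was higher in adipose tissue and 3 in liver with all 6 libraries, beside 16.5% and 6.62% of all genes. Without adipose 1 they were 8 and 3, beside 51.7% and 11.0%, so the adipose counts were below the share of all genes. The counts without adipose 1 became 0 and 7 with median ratio scaling and with quantile normalization, so the balance reversed.

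Red cell genes did not move together. The globins were higher in adipose tissue, Hba-a1 at 544, 229 and 140.2 FPKM against 26.5, 38.1 and 27.6 FPKM, while Alas2, the red cell enzyme of heme synthesis, was at 26.0, 8.86 and 7.58 FPKM in adipose tissue and 34.4, 37.4 and 38.2 FPKM in liver, a difference of -2.03 ± 0.13 (adjusted p = 0.00017) without adipose 1 and -1.51 ± 0.49 (adjusted p = 0.072) with all 6 libraries. Hba-a1 and Hba-a2 are near-identical, so their reads may be shared.

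Adipose 3 held genes of absorptive and ciliated epithelium that the other adipose libraries held at low levels; these were picked after their values were seen. Slc7a9, a cystine transporter of kidney and gut epithelium, was at 21.7 FPKM in adipose 3 and at most 2.43 FPKM in the other 8 adipose libraries of the study. Vil1, villin of the brush border, was at 7.90 FPKM against at most 1.19 FPKM. Sntn and Rsph4a, genes of motile cilia, were at 9.73 FPKM and 7.16 FPKM against at most 1.099 FPKM and 0.456 FPKM. Hnf4a was at 11.4 FPKM against at most 1.098 FPKM, and Pklr at 13.4 FPKM against at most 1.62 FPKM. Hepatocyte secretory genes were not raised in that library: Alb was at 5.05 FPKM in adipose 3 and 8.40 FPKM in adipose 2, Ahsg at 0.166 FPKM and 0.264 FPKM, and Fabp1 at 0 in both. Epcam, an epithelial surface protein, was at 23.3, 0.129 and 16.5 FPKM in adipose 1 to 3.

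Several abundant genes were listed at an exact 0 in single libraries. Among genes with a median over 100 FPKM in the 9 liver libraries, 5 were at 0 in at least 1 library. Alb was at 0 in liver HFD 3, and Mup7, Mup10 and Mup11 were at 0 in liver GT 2. The mitochondrial gene mt-Co1, with a median of 35030 FPKM, was at 0 in liver HFD 3 and GT 3. No liver library of the normal diet was among these. Among genes with a median over 100 FPKM in the adipose libraries, 1 was at 0 in a library, 2610044O15Rik8 in adipose 1.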
